A study of Mus musculus with 20 samples.

Results

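The 8 genes described here encode titin and proteins that anchor, splice or sense tension at the Z-disc of striated muscle: Ttn, Rbm20, Tcap, Ankrd1, Ankrd2, Csrp3, Actn2 and Ldb3. They were taken by symbol from a table of 21844 genes, each symbol stood on 1 row, and all 8 were among the 14359 genes abundant enough to test. The table holds RNA sequencing of mouse hindlimb muscle in 20 libraries, 5 in each of 4 groups. All mice carried the genotype labelled Cre+:iMSBmal1 fl/fl, in which a floxed copy of the clock gene Bmal1 can be removed from muscle. One set received vehicle, and the other is labelled iMSBmal1KO. Within each set, mice were either sedentary or ran on a treadmill over 6 weeks, and muscle was taken 48 hours after the last bout by the sample labels or 47 hours by the series text. The labels name the gastrocnemius in one field and the tibialis anterior in another. The inducing agent, the promoter that drives Cre and the age of the mice are not given in the labels used here. All comparisons ask what loss of muscle BMAL1, training, or both change.

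Titin is a giant elastic protein that spans the sarcomere, the contractile unit, from the Z-disc at its end to the M-band at its centre. At the Z-disc, alpha-actinin-2 (Actn2) crosslinks actin and binds titin, and telethonin (Tcap, the titin cap) joins the ends of a pair of titin molecules. RBM20 is a splicing factor that removes titin exons and so sets the length of the titin spring, which a count per gene does not show. BMAL1 is a transcription factor of the circadian clock that pairs with CLOCK or NPAS2 and binds the E-box, CACGTG. The muscle ankyrin repeat proteins, among them ANKRD1 and ANKRD2, bind the elastic part of titin and are known to respond to strain and injury.

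In libraries labelled knockout, Tcap fell 3.68-fold in sedentary muscle and 2.35-fold in trained muscle. It was the only member that passed the test in either comparison when all samples were used, where 2.33% and 3.29% of all tested genes were called. Ankrd1, which stood at a low level, was 2.25-fold and 2.27-fold higher in libraries labelled knockout once 1 vehicle trained library that stands apart was left out, and passed the test only then. In that fit 6.96% and 8.66% of all tested genes were called. With all samples the trained change of Ankrd1 had the opposite sign, at -0.41 on the log2 scale, and was not called. No call was made for Ttn itself, Rbm20, Actn2, Ldb3, Ankrd2 or Csrp3. No member passed the test for training in either genotype or for the interaction of knockout and training.

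The region around the gene start was available for 6 of the 8 members in RefSeq sequences of build GRCm38.p6, in windows that hold 250 bases upstream of the start. Tcap and Rbm20 were not among them. The windows were searched on both strands for the E-box CACGTG, the related CACGTT, and CATTCC, the site of TEAD factors, among others. The first 2 motifs were found in 2 members, and the stretches outside annotated exons are shown 5′ to 3′ on the gene's strand, with the matches in capitals. Actn2 held 2 copies of CACGTG (chr13:12340761-12340982, minus strand), and Ldb3 held CACGTT, read here as AACGTG (chr14:34588683-34588931, minus strand).
Actn2: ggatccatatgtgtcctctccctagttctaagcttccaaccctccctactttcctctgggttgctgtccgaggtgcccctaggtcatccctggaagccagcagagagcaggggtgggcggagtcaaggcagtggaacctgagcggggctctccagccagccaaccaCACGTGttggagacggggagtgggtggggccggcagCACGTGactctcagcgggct
Ldb3: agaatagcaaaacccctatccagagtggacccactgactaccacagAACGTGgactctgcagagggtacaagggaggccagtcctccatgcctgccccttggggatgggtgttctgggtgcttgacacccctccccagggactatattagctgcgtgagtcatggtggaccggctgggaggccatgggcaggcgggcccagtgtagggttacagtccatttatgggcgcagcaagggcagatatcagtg
Ankrd1 held CATTCC at 2 places, read here as GGAATG (chr19:36120037-36120066 and chr19:36119950-36119979, minus strand), both within an exon that GENCODE M21 annotates for a transcript that starts further upstream.
Ankrd1 match 1: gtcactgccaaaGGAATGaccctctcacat
Ankrd1 match 2: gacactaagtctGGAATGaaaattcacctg
Of 32851 such windows over all genes, 6.02% held CACGTG, 0.429% held it at least 2 times, 3.85% held CACGTT, 12.6% held CATTCC and 1.02% held CATTCC at least 2 times. A match is a stretch of letters, not a measured binding site. The 2 E-boxes belong to Actn2, whose level did not pass the test in either knockout comparison.

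Facts of the whole series bear on these genes in 4 ways. Library totals ran from 10610333 to 19153527 estimated counts. Knockout trained libraries 1 and 4, and likewise 3 and 5, were counted as 1 sample each, so that group has n = 3 and the fits have 18 samples. Libraries 1 and 4 differed by 1.90 times sampling noise at low counts and 2.38 times at high counts. For libraries 3 and 5 it was 2.01 and 1.75 times. The noise at high counts was thus 1.25 and 0.873 times that at low counts, against at least 2.31 times in the other 188 pairs. Vehicle trained library 2 stood apart. Its summed denervation and injury genes reached 11729 CPM (counts per library total, put on one scale) against 799 to 885 in the other 4 vehicle trained libraries. Some of its clock genes stood apart too. Nfil3 was 548 CPM against 25.0 to 35.9 in the other 4, and Dbp was 5.95 against 110 to 126. Per2 lay within the range of the other 4. The plot of knockout effects shows every member with and without library 2, as does the text for values it moves. The targeted gene, listed as Arntl, was not lower but higher in sedentary libraries labelled knockout, at 10.4 to 17.7 CPM against 5.99 to 7.52 in sedentary vehicle libraries. In trained samples labelled knockout it was 8.86 to 15.7 CPM. Vehicle trained library 2 had 144 CPM, and the other 4 vehicle trained libraries had 5.95 to 6.97 CPM, below all of these samples. The labels do not say which part of the gene Cre removes, and a gene count includes reads from the rest, so directions below rest on the label. Of 19 tested core clock genes, 2 were higher and 6 lower in sedentary libraries labelled knockout, where 2.33% of all tested genes were called. With vehicle trained library 2 left out, 4 were higher and 12 lower, where 6.96% of all tested genes were called. The clock repressor gene Nr1d2 was lower in both fits, at a log2 change of -1.24. The markers of skeletal muscle fibre were high in every group, with Acta1 up to 20473 CPM. Of 5 heart muscle markers, only 1 was abundant enough to test, Tnnt2, at no more than 4.47 CPM. Before scaling, Myh6, Nppa and Tnni3 reached 2.09, 0.264 and 0.377 CPM, and Mybpc3 had no row.

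Levels between genes can be compared only per length of exon. In vehicle sedentary muscle, Tcap stood first of the 8 at 2364 ± 257 CPM per kb (SD, n = 5), with 948 bases of annotated exon. Ldb3 followed at 250 ± 26.1 CPM per kb and Actn2 at 128 ± 20.2. Ankrd2 at 79.2 ± 13.8 and Ttn at 52.3 ± 9.41 CPM per kb had overlapping ranges. Csrp3 stood at 19.5 ± 2.72, Rbm20 at 12.1 ± 1.10 and Ankrd1 at 2.71 ± 0.662 CPM per kb. The order of the 8 means was the same in sedentary libraries labelled knockout, where Tcap stood at 642 ± 105 and Ankrd1 at 6.10 ± 1.42 CPM per kb. Lengths are the joined exons of all transcripts in GENCODE M21 (build GRCm38), 116825 bases for Ttn, and can exceed the transcript that muscle makes. All further levels are CPM after scaling of library sizes and compare 1 gene between samples.

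Ttn, on chromosome 2 (76703980 to 76982547, minus strand, GRCm38), had 6585, 5507, 5769, 4937 and 7770 CPM in the 5 vehicle sedentary libraries. The sedentary libraries labelled knockout had 5643, 5695, 4695, 6872 and 6926 CPM. Both groups covered the same range, and the log2 change was -0.04 (SE 0.214, adjusted p = 1.00, edgeR). Trained vehicle libraries had 3514, 3073, 6107, 5098 and 5207 CPM, and the 3 trained samples labelled knockout had 6943, 3320 and 4324 CPM. Both trained groups held samples well below the sedentary range as well as samples within it. The log2 change of knockout in trained muscle was 0.08 (SE 0.247), with a 95% interval from the SE of -0.40 to 0.56, and adjusted p = 0.904 by edgeR. Without vehicle trained library 2 it was -0.03 (SE 0.225, adjusted p = 0.954, edgeR), so its sign turned while it stayed near 0. Changes of titin within that interval are not distinguishable from none here. Titin alone supplied 0.283% to 0.737% of all counts of a sample. A gene overlapping Ttn on the other strand, Gm13938, had no row in the table.

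The samples with low Ttn were also the samples in which other long genes were low. Deviations from the mean of all samples were taken on the log2 scale, for Ttn and as the median over 1264 tested genes with at least 10 kb of exon. Knockout trained library 2 had -0.67 for Ttn and -0.21 for the long genes. Vehicle trained library 1 had -0.59 and -0.15, and the pooled knockout trained libraries 3 and 5 had -0.29 and -0.17. The 1508 genes with at most 2 kb of exon deviated the other way in those samples, by 0.35, 0.23 and 0.22. Nebulin (Neb), the giant protein along the thin filament, deviated by -0.36, -0.50 and -0.08 in the same order. The summed blood markers were 3128, 2047 and 859 CPM in these 3 samples against 347 to 818 in the 10 sedentary samples. Vehicle trained library 2 differed from this order, with -0.78 for Ttn and -0.04 for the long genes. The part of transcript length, of RNA quality and of blood in the spread of Ttn was not tested.

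**Figure D1:**
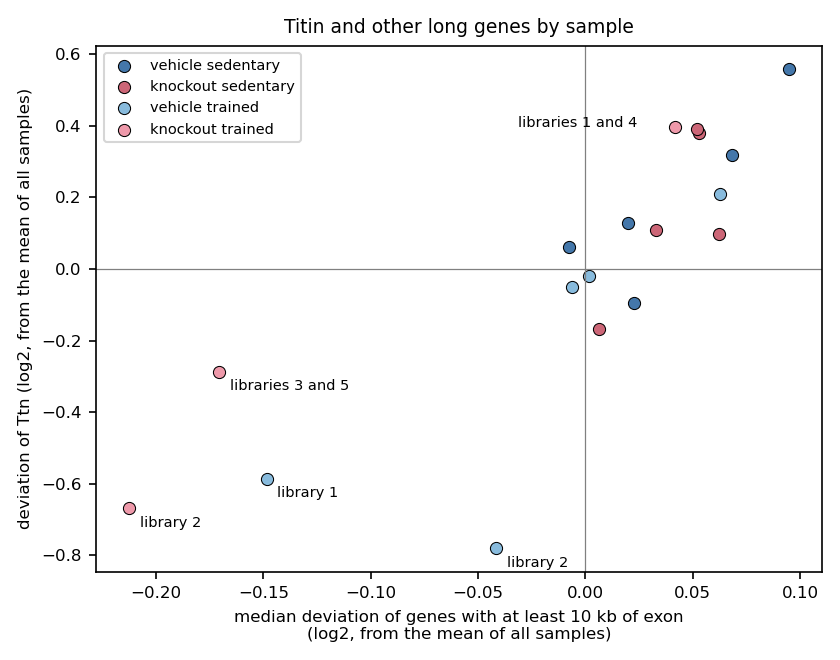
Each point is 1 of 18 samples; the x axis is the median log2 deviation of genes with at least 10 kb of exon from the mean of all samples, and the y axis is that of Ttn. The 3 trained samples named in the text lie at the lower left, with Ttn at -0.29 to -0.67 and the long genes at -0.15 to -0.21, while vehicle trained library 2 is low for Ttn at -0.78 with the long genes at -0.04.

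Rbm20, on chromosome 19 (53677306 to 53867080, plus strand), had 89.6, 83.7, 77.0, 72.3 and 88.7 CPM in vehicle sedentary libraries. Sedentary libraries labelled knockout had 70.0, 65.3, 67.1, 64.2 and 77.7 CPM. Of these 5, 4 lay below every vehicle library, but the groups overlapped, and the log2 change of -0.26 (SE 0.273) had adjusted p = 0.951 by edgeR. In trained muscle, vehicle libraries had 58.2, 216, 72.7, 64.9 and 77.6 CPM, and samples labelled knockout had 70.0, 45.6 and 49.6 CPM. Library 2 of the vehicle group was far above every other sample. The log2 change was -0.83 (SE 0.325, adjusted p = 0.192) with it and -0.31 (SE 0.133, adjusted p = 0.176) without it, by edgeR. The sign was negative in both comparisons, and in neither was it called. Of the genes that overlap Rbm20 on the other strand, Gm16299 had 21 to 96 estimated counts, at most 6.98% of those of Rbm20, and reads of the 2 cannot be told apart without the strand.

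Tcap lies on chromosome 11 (98383811 to 98384953, plus strand) and, besides joining titin ends, serves as an anchor for signalling proteins at the Z-disc. In vehicle sedentary libraries it had 2248, 2425, 2210, 1854 and 2470 CPM. Sedentary libraries labelled knockout had 502.9, 560.6, 742.9, 682.0 and 553.2 CPM. The highest of these was less than the lowest vehicle value by over 1000 CPM, and 8.71% of tested genes had groups that did not overlap in this comparison. Group means were 2241 ± 244 and 608 ± 99.9 CPM (SD, n = 5 each). The log2 change was -1.88 (SE 0.178, adjusted p = 4.01e-06, edgeR's quasi-likelihood test with Benjamini-Hochberg adjustment over all tested genes). The change was -1.88 (SE 0.129, adjusted p = 2.50e-08, edgeR) when vehicle trained library 2 was left out. This comparison called 2.33% of tested genes, 1.31% lower and 1.02% higher (188 and 146 genes, against 155 and 172 when scaled by library totals alone), and Tcap was the 1 of 8 members called. It ranked 14 of 14359 by p and 2 by vehicle level among the 188 genes called lower.

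In trained muscle Tcap was again lower in samples labelled knockout. The 2 comparisons use different samples for their means but share 1 estimate of the spread, and are not independent tests. Vehicle trained libraries had 2045, 977.1, 1803, 1549 and 1891 CPM, the second value being that of the library that stands apart. Trained samples labelled knockout had 592.5, 813.1 and 708.4 CPM. The groups did not overlap, even with library 2, as in 8.86% of tested genes. The log2 change was -1.23 (SE 0.208, adjusted p = 0.00231), and -1.36 (SE 0.157, adjusted p = 1.57e-05) without vehicle trained library 2, by edgeR. With all samples 3.29% of tested genes were called, 1.3% lower and 1.99% higher. Under library totals alone the split of called genes was 215 higher and 214 lower against 286 and 187 here, and Tcap was called lower under both. When only the 2 trained groups entered the fit, the adjusted p of Tcap was 0.161 at the same log2 change of -1.23, and 20 genes in all were called.

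Training and the interaction gave no call for Tcap. Its mean in trained vehicle muscle was 1653 ± 419 CPM (SD, n = 5), or 1822 ± 208 without library 2 (n = 4), against 2241 in sedentary vehicle muscle. The log2 change of -0.44 (SE 0.172) had adjusted p = 0.282 by edgeR, and without library 2 it was -0.29 (SE 0.133, adjusted p = 0.372). In muscle labelled knockout the trained mean was 705 ± 110 CPM (SD, n = 3) against 608, a log2 change of 0.21 (SE 0.197, adjusted p = 0.863, edgeR). The fall with knockout was nominally smaller after training, by 0.65 on the log2 scale (SE 0.261), and this difference did not pass the test (adjusted p = 0.652, edgeR). Without library 2 the difference was 0.51 (SE 0.195, adjusted p = 0.335, edgeR). In bulk muscle, fewer fibres and less RNA per fibre cannot be told apart. The 7 fibre markers summed to 54719 to 73256 CPM in sedentary libraries labelled knockout and 63218 to 76161 CPM in sedentary vehicle libraries. In trained muscle they summed to 63283 to 83507 CPM and 50815 to 71357 CPM.

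**Figure D2:**
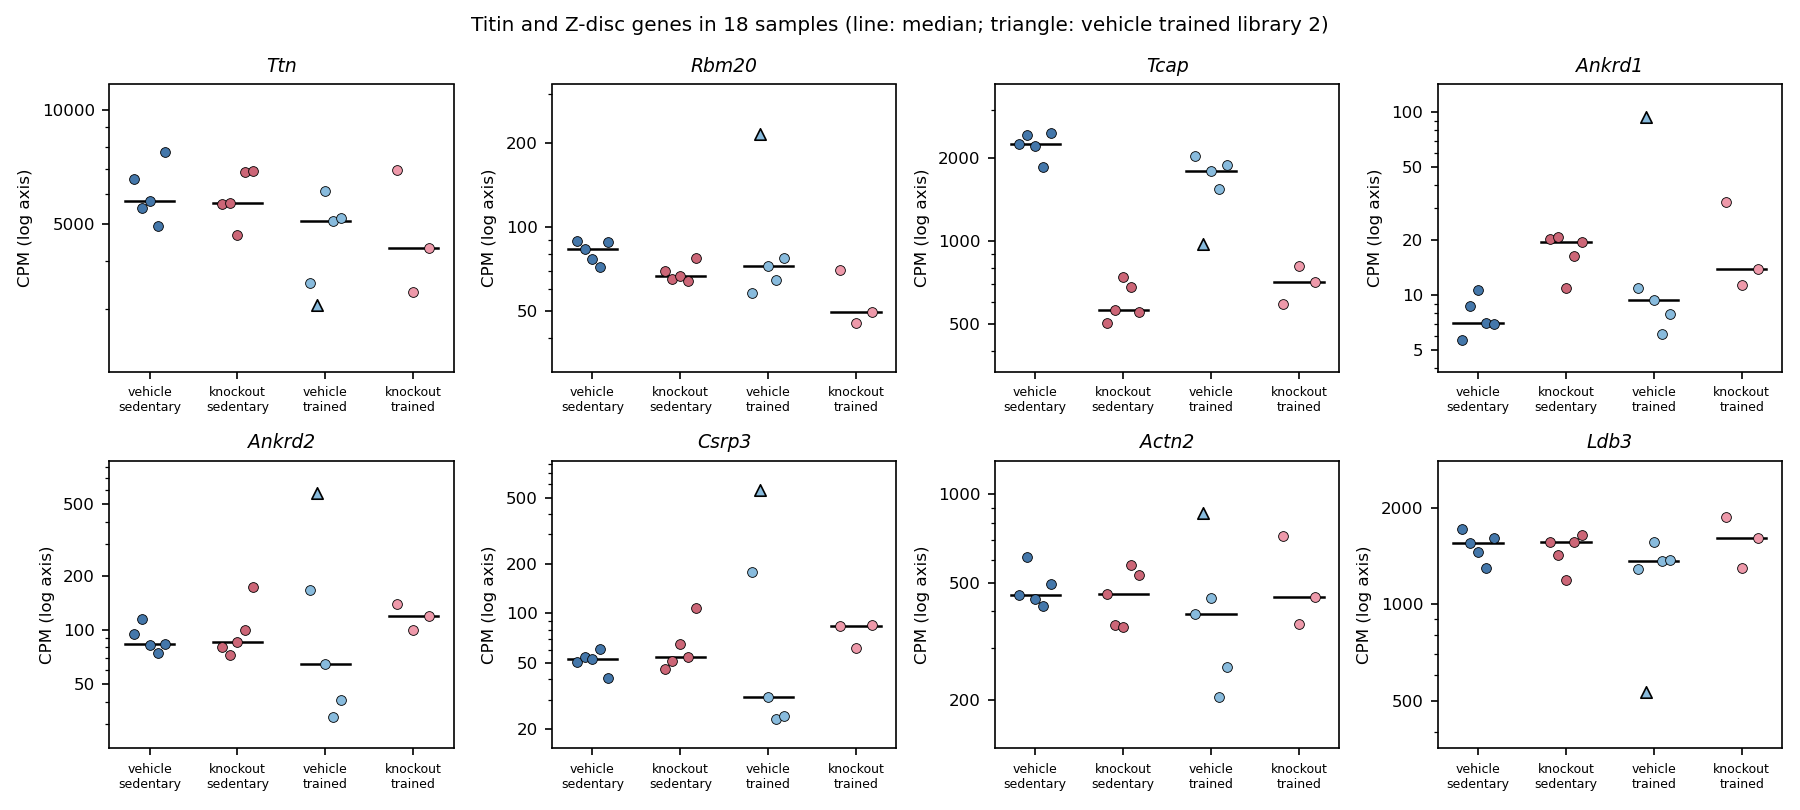
Level of each of the 8 genes in 18 samples, in CPM on a log axis, by group; points are samples, the line is the group median and the triangle is vehicle trained library 2. For Tcap all samples labelled knockout lie between 502.9 and 813.1 CPM, below all vehicle samples, whereas for Rbm20, Ankrd1, Ankrd2, Csrp3 and Actn2 the triangle lies above all other samples and for Ldb3 below them.

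The genes whose pattern over the 17 samples other than vehicle trained library 2 was most like that of Tcap were Smpdl3b and Sorbs3. Likeness is the root mean square difference of centred log2(CPM + 1) values, 0.194 for Smpdl3b and 0.203 for Sorbs3, against an SD of 0.890 for Tcap itself. Sorbs3, which encodes the adhesion adaptor vinexin, had a mean of 68.1 CPM in sedentary vehicle libraries and 20.7 CPM in those labelled knockout. Smpdl3b, a membrane phosphodiesterase gene, had 4.77 and 0.48 CPM in the same groups. At this level the 1 added to CPM shrinks a change, and the fitted sedentary log2 change of Smpdl3b was -3.33, against -1.88 for Tcap. With all 18 samples, Mlf1 took the second place at 0.268, after Smpdl3b at 0.218.

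Actn2 and Ldb3 are structural members. Ldb3 encodes ZASP, also called cypher, which binds alpha-actinin at the Z-disc. Actn2 ranged from 418 to 612 CPM in vehicle sedentary libraries and from 354 to 575 CPM in sedentary libraries labelled knockout. Its trained vehicle libraries had 392, 866, 446, 206 and 259 CPM against 723, 362 and 448 CPM in samples labelled knockout. These groups overlapped, and the log2 change was 0.24 (SE 0.344, adjusted p = 0.767) with library 2 and 0.66 (SE 0.252, adjusted p = 0.121) without it, by edgeR. Ldb3 was the steadiest member in sedentary muscle after Rbm20 by its coefficient of variation, at 1528 ± 159 CPM in vehicle libraries and 1477 ± 181 CPM in those labelled knockout (SD, n = 5 each). Its interval for the sedentary log2 change ran from -0.46 to 0.36. In trained vehicle muscle, Ldb3 was 1287 to 1570 CPM in 4 libraries and 531.6 CPM in library 2, and samples labelled knockout had 1295 to 1869 CPM.

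Csrp3 encodes muscle LIM protein, a Z-disc protein abundant in slow and cardiac muscle, and Ankrd2 encodes a muscle ankyrin repeat protein also typical of slow fibres. In sedentary muscle Csrp3 was 40.8 to 60.8 CPM in vehicle libraries and 46.0 to 107.7 CPM in those labelled knockout. Ankrd2 was 74.4 to 115 CPM and 72.4 to 172.6 CPM in the same groups. For both genes the highest sedentary value was that of the library labelled knockout sedentary 5, and the groups overlapped.

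The trained vehicle group was the most spread for both genes. Csrp3 had 177.6, 554.3, 31.5, 23.1 and 24.0 CPM in its libraries 1 to 5, and Ankrd2 had 167.5, 579.1, 64.5, 33.0 and 40.8 CPM. Trained samples labelled knockout fell in between, at 61.8 to 85.2 CPM for Csrp3 and 100.03 to 138.9 CPM for Ankrd2. The log2 changes of knockout in trained muscle were negative with library 2, -1.07 for Csrp3 (SE 0.780) and -0.57 for Ankrd2 (SE 0.663), and positive without it, 0.28 (SE 0.515) and 0.65 (SE 0.399). None of these 4 values was called. The slow fibre genes of the same vehicle libraries summed to 1521, 780, 917, 470 and 545 CPM, with library 1 highest and libraries 4 and 5 lowest. Library 2, the highest for Csrp3 and Ankrd2, was in the middle for slow fibre genes and below library 3. The part of fibre type in these values was not tested.

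Ankrd1, also called CARP, is a strain and injury response gene that is low in healthy muscle. It lies on chromosome 19 (36111961 to 36120099, minus strand). Vehicle sedentary libraries had 5.72, 8.69, 10.7, 7.06 and 6.96 CPM. Sedentary libraries labelled knockout had 20.3, 20.8, 10.97, 16.4 and 19.5 CPM. All 5 lay above all 5 vehicle libraries, the smallest gap being between 10.67 and 10.97 CPM, and 8.71% of tested genes had groups that did not overlap. Means were 7.82 ± 1.91 and 17.6 ± 4.09 CPM (SD, n = 5 each). The log2 change was 1.17 with SE 0.615 and adjusted p = 0.606 by edgeR when all samples shared the estimate of spread. Vehicle trained library 2 belongs to neither group but enters the shared spread, and with it left out the change was 1.17 with SE 0.258 and adjusted p = 0.00651, where 6.96% of tested genes were called.

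In trained muscle the sign of the Ankrd1 change rested on library 2. Vehicle trained libraries had 10.99, 94.7, 9.38, 6.11 and 7.89 CPM, and samples labelled knockout had 32.4, 11.3 and 14.0 CPM. Without library 2 all 3 samples labelled knockout lay above the 4 vehicle libraries, the nearest pair being 10.99 and 11.33 CPM, and 15.8% of tested genes did not overlap in that set. The log2 change was -0.41 (SE 0.693, adjusted p = 0.804) with that library and 1.18 (SE 0.303, adjusted p = 0.0199) without it, by edgeR, where 8.66% of tested genes were called. Library 2 was set apart by its injury genes, and Ankrd1 is itself an injury response gene. The trained call without that library is therefore not independent of the choice to leave it out. The interaction without it was 0.01 (SE 0.400, adjusted p = 0.994). The genes most like Ankrd1 over the 17 other samples were Gm42971, at a root mean square difference of 0.248, and Wdr6, at 0.304, against an SD of 0.652 for Ankrd1. With all 18 samples, Sox4 at 0.324 and Klhl30 at 0.369 took their places, against an SD of 0.937. Neither Sox4 nor Klhl30 was called in a knockout comparison with all samples. Means in sedentary vehicle libraries and those labelled knockout were 0.345 and 1.97 CPM for Gm42971 and 10.8 and 20.9 CPM for Wdr6. At the level of Gm42971 the 1 added to CPM shrinks a change, and its fitted sedentary log2 change was 2.52, against 1.17 for Ankrd1.

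**Figure D3:**
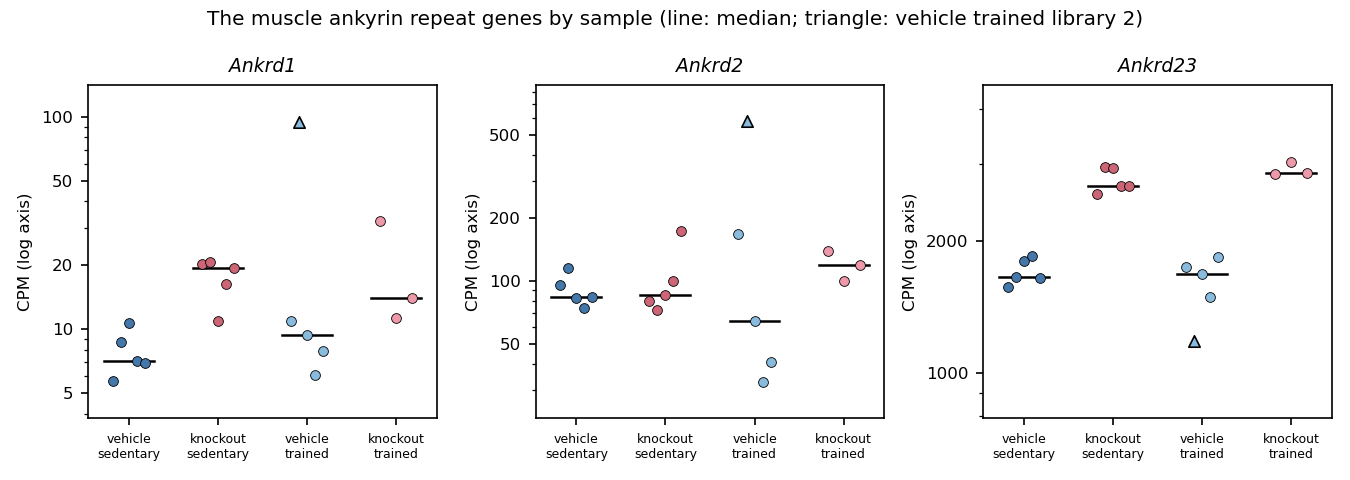
The 3 muscle ankyrin repeat genes by sample, in CPM on a log axis; points are samples, the line is the group median and the triangle is vehicle trained library 2. Ankrd1 and Ankrd23 are higher in all 5 sedentary libraries labelled knockout than in all 5 vehicle libraries, and Ankrd2 overlaps. In that comparison 8.71% of tested genes do not overlap.

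Ankrd23, the third muscle ankyrin repeat gene, is no member but belongs to a list of 20 titin I-band and M-band partners. It had 1567, 1657, 1804, 1844 and 1648 CPM in vehicle sedentary libraries and 2564, 2950, 2930, 2661 and 2672 CPM in those labelled knockout. Trained vehicle libraries had 1184 to 1836 CPM and trained samples labelled knockout had 2847 to 3027 CPM. The groups did not overlap in either comparison, as in 8.71% of tested genes in sedentary and 8.86% in trained muscle. Ankrd23 rose by log2 0.69 (SE 0.114, adjusted p = 0.00164) in sedentary and 0.87 (SE 0.129, adjusted p = 0.000854) in trained muscle, by edgeR, and by 0.70 and 0.79 without vehicle trained library 2. So of the ankyrin genes, Ankrd23 was called with all samples, Ankrd1 without 1 library and Ankrd2 in neither fit. Differences between the 3 genes were not tested.

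**Figure D4:**
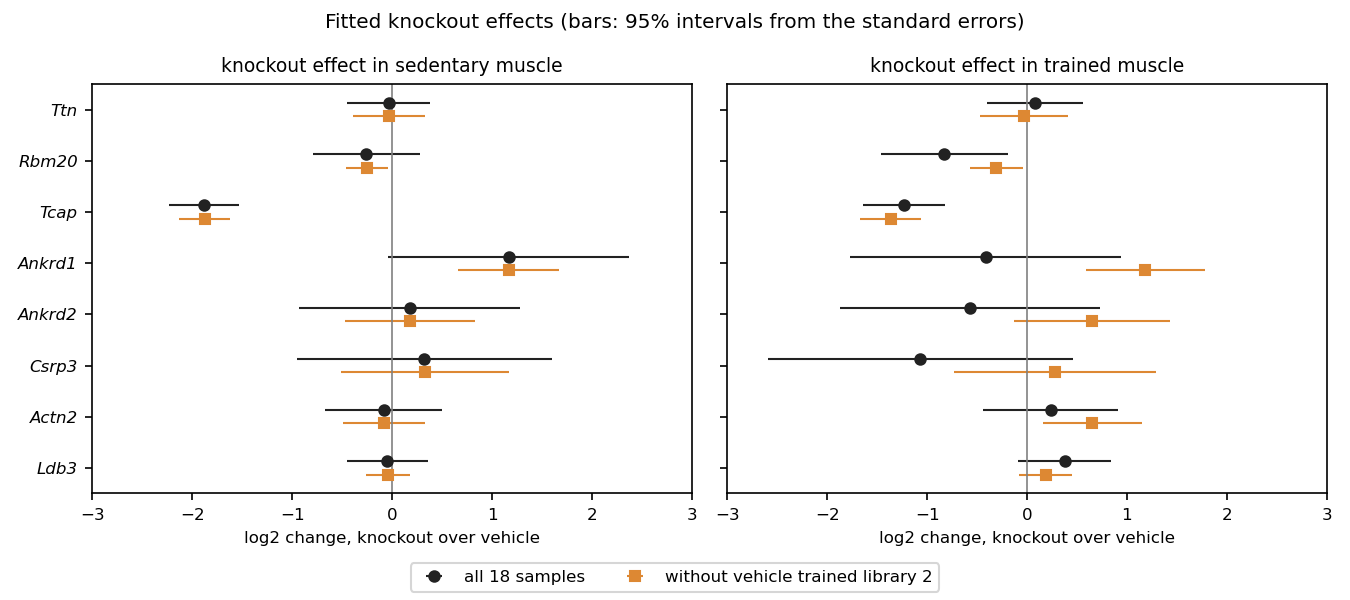
Fitted log2 change of each of the 8 genes in libraries labelled knockout over vehicle, in sedentary (left) and trained (right) muscle, with bars of 95% intervals from the standard errors; circles use all 18 samples and squares leave out vehicle trained library 2. Tcap lies at -1.88 and -1.23 with all samples, and Ankrd1 in trained muscle moves from -0.41 to 1.18 when the library is left out.

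Of the titin partners, 1 of 20 rose and 1 fell in sedentary muscle, where 2.33% of all tested genes were called. In trained muscle 2 rose and 1 fell, where 3.29% of all tested genes were called. Besides Ankrd23, the M-band protein gene Myom3 rose in trained muscle by log2 1.21 (SE 0.290, adjusted p = 0.0275, edgeR). The rise was 1.27 without vehicle trained library 2. Its trained vehicle libraries had 10.9 to 29.9 CPM and the samples labelled knockout had 30.6 to 72.1 CPM. Smyd2, a lysine methyltransferase that binds titin's elastic part, fell in both, by 0.61 and 0.55 on the log2 scale (adjusted p = 0.00454 and 0.0297, edgeR), and by 0.60 and 0.46 without that library. The list's median log2 change was 0.04 and 0.08, against 0.01 and -0.03 over all tested genes. Without vehicle trained library 2, Mybpc1, a slow-type myosin binding protein gene, also fell in sedentary muscle, by 0.75 (adjusted p = 0.0187, edgeR).

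With all samples, 2.33% of all tested genes were called in sedentary and 3.29% in trained muscle. Of 31 other Z-disc genes tested, Cavin4 alone was called. It encodes a muscle caveolae coat protein and rose by log2 0.81 (SE 0.139, adjusted p = 0.00242) in sedentary and 0.70 (SE 0.157, adjusted p = 0.0188) in trained muscle, by edgeR, and by 0.81 and 0.83 without vehicle trained library 2. It had 107 to 148 CPM in vehicle sedentary libraries and 181 to 271 CPM in those labelled knockout. The median log2 change of the list was -0.06 in sedentary and 0.08 in trained muscle. Without vehicle trained library 2, 2 rose and 2 fell in sedentary muscle, and 3 rose and 0 fell in trained muscle, where 6.96% and 8.66% of all tested genes were called. Those added were the LIM protein gene Pdlim3 at 0.45 and the actin binding genes Lmod2 at -0.73 and Synpo2 at -0.34 in sedentary muscle, and Pdlim1 at 0.81 and Myoz3 at 0.59 in trained muscle.

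Of 23 splicing regulators tested, 1 passed in each comparison and none rose, where 2.33% and 3.29% of all tested genes were called. Srpk2, which encodes a kinase of SR splicing factors, had 52.7 to 57.7 CPM in sedentary vehicle libraries and 34.5 to 40.9 CPM in those labelled knockout. It fell by 0.51 (SE 0.115, adjusted p = 0.0182) and 0.57 (SE 0.136, adjusted p = 0.0248) on the log2 scale in sedentary and trained muscle, by edgeR, and by 0.51 and 0.67 without vehicle trained library 2. The list's medians were -0.06 and -0.12.

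**Figure D5:**
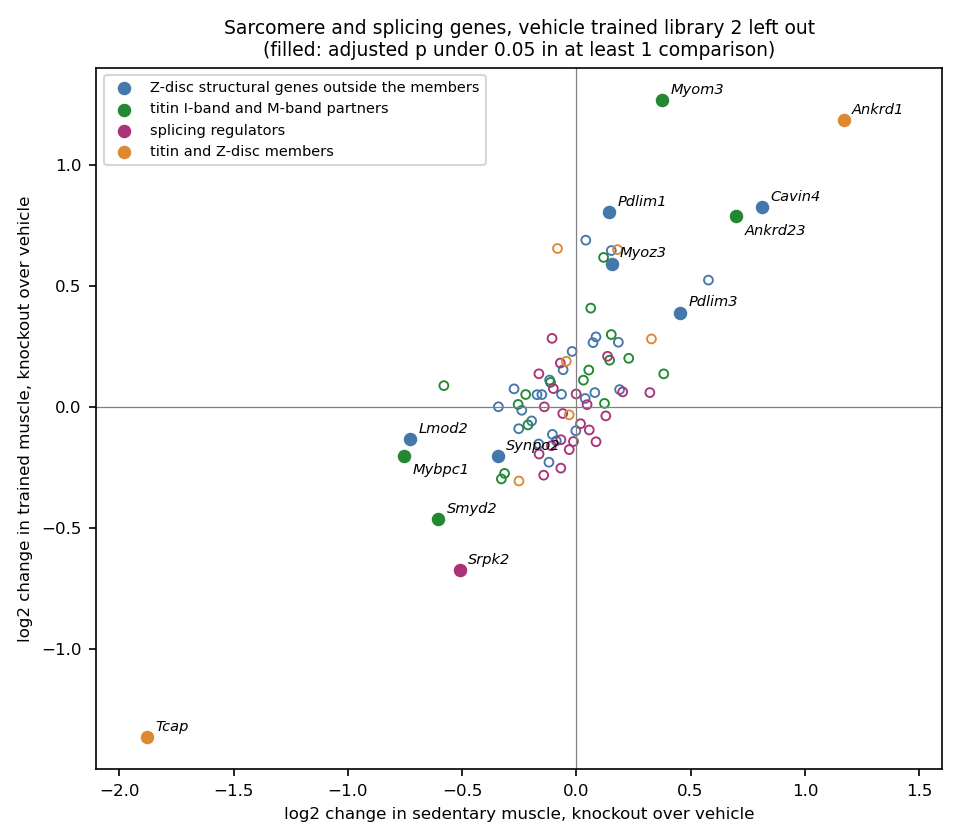
Each point is 1 gene, with its log2 change in libraries labelled knockout over vehicle in sedentary muscle (x axis) and trained muscle (y axis), fitted without vehicle trained library 2; colours are the 8 members and 3 lists, and filled points have an adjusted p under 0.05 in at least 1 comparison. Tcap is the lowest point at -1.88 and -1.36, and Ankrd1, Cavin4 and Ankrd23 lie at the upper right.

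Genes of strain and of denervation were listed because Ankrd1 is known to respond to both. With all samples, 2.33% of all tested genes were called in sedentary and 3.29% in trained muscle. Of 15 strain and YAP/TEAD response genes, Tead4 alone was called. This TEAD transcription factor gene rose from 3.31 ± 0.367 to 12.9 ± 0.757 CPM in sedentary muscle (SD, n = 5 each), a log2 change of 1.96 (SE 0.296, adjusted p = 0.000708, edgeR). In trained muscle it rose by 1.51 (SE 0.321, adjusted p = 0.0131, edgeR), and by 2.08 without vehicle trained library 2. With that library left out, 6.96% of all tested genes were called in sedentary and 8.66% in trained muscle. In this fit 2 of the 15 rose and 2 fell in sedentary muscle, and 3 rose and 1 fell in trained muscle. Among them the immediate early gene Egr1 rose by 1.61 and 1.99 and Fos rose by 3.43 in trained muscle, while Tead1 and Srf fell by 0.45 and 0.38 in sedentary muscle and Lats2 fell by 0.35 in trained muscle. Of 13 denervation and injury genes, Chrna1, an acetylcholine receptor subunit gene, was called with all samples, and rose by 1.27 and 1.90 on the log2 scale. Without vehicle trained library 2, where 6.96% and 8.66% of all tested genes were called, 4 of the 13 rose in sedentary and 3 in trained muscle. None fell. The cell cycle inhibitor gene Cdkn1a then rose by 3.77 and 3.79, 13.7-fold and 13.8-fold, and the stress gene Gadd45a by 0.81 and 0.50. With that library included, Cdkn1a was at 3.76 (adjusted p = 0.106) and -0.46 (adjusted p = 0.879), by edgeR. The summed denervation and injury genes did not overlap in sedentary muscle, at 602 to 1042 CPM in vehicle libraries and 1082 to 1294 CPM in those labelled knockout. In trained muscle they were 799 to 11729 CPM and 937 to 1054 CPM. Of 11 slow fibre genes, Casq2, a calcium store protein gene, rose by 1.46 and 1.81, and Sln, which encodes the calcium pump inhibitor sarcolipin, rose by 3.29 in sedentary muscle. When vehicle trained library 2 was left out, Casq2 rose by 1.46 and 1.61 and Sln by 3.30 and 2.33. The slow troponin gene Tnni1 then rose by 1.45 in trained muscle, so 2 of the 11 rose in sedentary and 3 in trained muscle. None fell, and the list's medians were -0.14 and 0.82. The summed slow fibre genes of trained muscle were 470 to 1521 CPM in vehicle libraries and 1174 to 1672 CPM in samples labelled knockout. The summed slow fibre genes of sedentary muscle overlapped between vehicle (1113 to 1763 CPM) and libraries labelled knockout (756 to 1648 CPM). The macrophage markers overlapped too, at 54.4 to 204 and 82.3 to 221 CPM, and the satellite cell markers were 64.4 to 93.9 and 86.3 to 133 CPM. The part of injury, denervation or these cells in the values of Tcap and Ankrd1 was not tested.

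Training alone gave no call for any member. With all samples, edgeR called 0% of tested genes for training in vehicle muscle, 0% for training in muscle labelled knockout and 0% for the interaction. At an unadjusted p under 0.05 there were 2186, 1394 and 1076 genes, and DESeq2 called 15, 198 and 26. Members at an unadjusted p under 0.05 numbered 3 for training in vehicle muscle (Tcap, Ankrd1 and Csrp3), 0 in muscle labelled knockout and 1 for the interaction (Tcap). For Ankrd1 the vehicle training change was 1.71 (SE 0.619, adjusted p = 0.274) with library 2 and 0.13 (SE 0.281, adjusted p = 0.861) without it, by edgeR. For Csrp3 it was 1.64 (SE 0.667, adjusted p = 0.283) and 0.30 (SE 0.455, adjusted p = 0.782). Without library 2, training in muscle labelled knockout called 0.843% of tested genes and no member. The count over all genes, 0 with all samples, thus became 121, and it was 397 without the pooled knockout trained libraries 1 and 4, and 45 without vehicle trained library 1, again with no member.

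Over the 8 members together, the median log2 change was -0.04 in the sedentary and -0.49 in the trained knockout comparison, against 0.01 and -0.03 over all tested genes. Without vehicle trained library 2 the members' medians were -0.04 and 0.24, against 0.02 and 0.00 over all tested genes, so the sign of the trained median turns on that library.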

How the data were processed

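The members and gene lists were chosen with earlier results of these data known. The deposited table is named for CPM, but its columns sum to different totals and 72.0% of its values are whole, so they were treated as estimated counts (expected counts) per gene, as deposited by the authors. Per the submitters' processing notes, Partek, STAR 2.7.8a and DESeq2 were used and builds mm10 and GRCm39 are named, without roles. The counter, annotation and strandedness are not given in the sources used here. Every row sums to at least 10 counts. RNA was extracted with Trizol and a column kit, per the labels' protocols.

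Counts were rounded. Of 190 library pairs, 2 were summed, in which noise at high counts was under 1.5 times that at low counts. This limit was set after seeing the values. Genes with at least 1 CPM in at least 5 of 20 libraries were tested with edgeR 4.0.16 (R 4.3.3), TMM scaling and a model of 4 group means, in 5 contrasts, two-sided, with Benjamini-Hochberg adjustment over 14359 genes and a threshold of 0.05. The standard error of a log2 change is its size over the square root of F. Nothing in the labels says that libraries came from separate mice, so p-values measure the spread between these samples.

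Named were the 8 members, the targeted gene, at most 3 rises and 3 falls per list and contrast with adjusted p under 0.05 (with or without vehicle trained library 2), and the 2 genes most like each called member. Not every gene that qualifies is printed. Alternatives were RLE or total scaling, DESeq2 1.42.0, limma 3.58.1 on log2(CPM + 1) and log2(CPM + 0.1), other filters, the 2 groups alone, all 20 libraries separate, a replicate block, and each sample left out. A sign change between values that were both uncalled is not counted as a reversal. A fit without both vehicle trained libraries 1 and 2 was also run after the data were seen and is not reported, because library 1 had been picked by the members' own values. On simulated counts of 14359 genes, the test recovered 70 and 94 of 100 genes changed by log2 1 and 2 in the sedentary comparison with 8 false calls, and 51 and 89 in the trained comparison with 5. No simulated library stood apart as vehicle trained library 2 does. These numbers therefore do not show how the test performs with that library in the fit. Exon lengths and positions are from GENCODE M21 (GRCm38), and the 10 kb and 2 kb limits were set with the data in view.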

Additional observations from a re-analysis of the deposited data

Results flagged for a closer look

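In groups of 4 to 10 samples, 24 member and group combinations were examined for a sample whose gap to its neighbour was large against the range of its group, and 3 were found where chance gives about 1.2. All 3 were vehicle trained library 2. Ankrd1 stood there at 94.7 CPM against 6.11 to 10.99 in the other 4 libraries, Rbm20 at 216.3 CPM against 58.2 to 77.6, and Ldb3 at 531.6 CPM against 1287 to 1570. The same library had the lowest summed fibre markers of its group, 50815 CPM against 66966 to 71357, and summed macrophage markers of 411 CPM against 154 to 360. The part of these in the 3 values was not tested.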

How the results depend on the processing

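The fall of Tcap in sedentary libraries labelled knockout was called under all 29 alternatives, at log2 changes of -1.96 to -1.81. In trained muscle it was called under 28 of 29, at -1.48 to -1.11. The exception was the fit of the 2 trained groups alone (-1.23, adjusted p = 0.161, edgeR), and the reason was not tested. The number of members called in sedentary muscle, 1, became 2 (Tcap and Ankrd1) with only the 2 groups compared, with the replicate block when vehicle trained library 2 was left out, and ranged from 1 to 2 when single samples were left out. In trained muscle, 1 became 0 with only the 2 groups, 2 with the replicate block without that library, and 1 to 2 over single samples left out. Ankrd1 in trained muscle reversed from -0.41 to 1.23 (adjusted p = 0.0167, edgeR) with the replicate block without library 2 and to 1.18 without library 2 alone, and lay between -0.998 and 1.18 over single samples left out. For training and the interaction no alternative called a member; over all genes, training in muscle labelled knockout went from 0 to 397 without the pooled knockout trained libraries 1 and 4, 121 and 45 without vehicle trained library 2 or 1, 49 with 20 separate libraries, 160 with the replicate block without library 2 and 198 with DESeq2. Same-numbered libraries shared only a number: 11 of 30 pairs correlated above 0.1 (median 0.03) and 5 of 20 libraries correlated best with their own number; with the replicate block alone and 20 separate libraries the calls for members were as before (Tcap -1.88 and -1.26), with 336 and 980 genes called in all. Counts over all genes, 334 sedentary and 473 trained, moved by over 1.5 times to 1177 and 20 with the 2 groups alone, 537 and 907 with DESeq2, 1000 and 1244 without vehicle trained library 2, and 975 and 1944 with the block without it. The trained count was 1226 with 20 separate libraries, 299 without knockout trained library 2 and 177 without libraries 3 and 5. The lowest level of a member was 5.72 CPM, for Ankrd1 in a library of 12929215 counts, so counting error bears most on that gene.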
